A study of Mus musculus with 6 samples.

Results

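Aminoacyl-tRNA synthetases are the enzymes that join each amino acid to its transfer RNA. Their genes were taken by symbol from the deposited expression table: 36 genes of the 24964 listed, of which 20 encode cytosolic enzymes and 16 encode mitochondrial enzymes (symbols ending in 2). RNA-seq had been made from the luminal epithelium of the mouse uterus, which lines the cavity, cut out by laser capture on pregnancy day 4. Both groups carried floxed Foxo1 alleles. The Foxo1ff group (genotype Foxo1f/f, 3 samples) had no Cre. The Foxo1dd group (genotype Pgrcre/+Foxo1f/f, 3 samples) also had 1 Cre allele at Pgr, the progesterone receptor gene, so Foxo1 can be lost in any cell that makes this receptor, stroma included. All females had been kept with littermates up to an age of 8 weeks and then mated. The sample names speak of bioreplicates without saying how many animals stand behind each, so every p-value here measures the spread between these samples only. The comparison asks how a genotype that lacks the transcription factor FOXO1 goes with the expression of the charging enzymes around the time of embryo attachment. Only Foxo1dd carried the Cre allele at Pgr, so its effect and that of FOXO1 loss cannot be told apart.

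Each synthetase recognises 1 amino acid, and the charged tRNA carries it to the ribosome. The enzymes fall into a class I and a class II, which have unrelated catalytic folds. In the cytosol several of them sit together in a multisynthetase complex held by non-enzymatic scaffold proteins. Mitochondria translate their own small genome and import a separate set of synthetases made from nuclear genes. Gars and Kars are exceptions, since each gene gives rise to both a cytosolic and a mitochondrial enzyme, and Eprs encodes a single protein that charges both glutamate and proline tRNA. Many cytosolic synthetase genes are known targets of ATF4, a transcription factor of the amino acid and stress response, which binds a composite C/EBP-ATF element together with C/EBP family partners.

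Promoter sequences from RefSeq (GRCm38.p6, 250 bases before to 50 bases after each gene's start) were found for 27 of the 36 genes, the entry for Mars under its newer symbol Mars1. Cars, Hars, Lars, Nars, Rars, Vars, Wars, Hars2 and Pars2 were not matched. The C/EBP-ATF element was searched as TGATGNAA, with TTNCATCA on the other strand. It was present in 5 of the 27, which were Aars, Gars, Iars, Tars and Yars, all cytosolic, and in 4.51% of the 27025 genes that have a promoter entry. These 5 are shown because they include each of the 3 synthetase genes that were higher in Foxo1dd and also the gene with the largest fall. Capitals mark the element, the text runs 5′ to 3′ on the gene's own strand, and each stretch ends 20 bases after the start. Start here means that of the RefSeq entry. In GENCODE M21, used for gene positions below, Aars and Yars begin upstream of their printed stretches, at 111033144 and 129189760. From the RefSeq start, the element lay 112 to 105 bases before and again 10 to 17 bases after it in Aars. It lay 30 to 23 before it in Gars, 8 to 15 after it in Iars, 15 to 8 before it in Tars and 4 to 11 after it in Yars.

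Aars (chr8:111033720-111033861, plus strand): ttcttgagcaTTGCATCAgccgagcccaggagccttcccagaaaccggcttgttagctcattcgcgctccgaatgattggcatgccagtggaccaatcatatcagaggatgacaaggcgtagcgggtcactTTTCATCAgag
Gars (chr6:55037941-55038020, plus strand): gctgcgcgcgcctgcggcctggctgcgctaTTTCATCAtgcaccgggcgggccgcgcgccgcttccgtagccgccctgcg
Iars (chr13:49682070-49682149, plus strand): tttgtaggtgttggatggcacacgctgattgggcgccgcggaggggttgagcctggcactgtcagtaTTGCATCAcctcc
Tars (chr15:11399639-11399718, minus strand): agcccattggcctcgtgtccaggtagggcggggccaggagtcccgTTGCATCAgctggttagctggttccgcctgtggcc
Yars (chr4:129189843-129189922, plus strand): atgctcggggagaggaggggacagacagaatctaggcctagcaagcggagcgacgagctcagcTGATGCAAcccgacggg

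A forkhead element bound by FOXO proteins was searched as GTAAACA, with TGTTTAC on the other strand. It occurred in 4.05% of genes with a promoter entry and in 2 of the 27 synthetase promoters, those of Iars2 and Vars2, both mitochondrial. No synthetase promoter held both elements. The match lay 102 to 96 bases before the start of Iars2 and 187 to 181 bases before the start of Vars2, and is in capitals below. A match describes these letters only and shows neither binding nor a cause.

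Iars2 (chr1:185329482-185329518, minus strand): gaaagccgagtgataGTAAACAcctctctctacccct
Vars2 (chr17:35667758-35667794, minus strand): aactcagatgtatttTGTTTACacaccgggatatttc

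Expression was read as FPKM, a level divided by gene length and library depth, which allows levels to be compared between genes. FPKM summed over all genes ran from 613186 to 667499 in the Foxo1ff group and from 552190 to 564628 in Foxo1dd, without overlap. Sums over gene sets given below are not corrected for this difference. Genes above 0 numbered 13995 in Foxo1dd 2 against 15474 to 16062 in the other 5 samples. Foxo1 itself had 160.0, 118.5 and 111 FPKM in the 3 controls and 1.72, 0.942 and 1.22 in the 3 Foxo1dd samples, with the floxed exon not resolved. Pgr, the gene that holds the Cre allele, averaged 2.03 FPKM in the Foxo1ff group and 31.5 in Foxo1dd (log2 change 3.42, limma adjusted p = 7.45e-07). Luminal epithelial markers were abundant in both groups, summing to 2073 to 2665 FPKM in Foxo1ff and 3094 to 3492 in Foxo1dd. Of the 10, all tested, 5 were higher and 2 lower by the rule given below, beside 22.2% and 34.2% of all tested genes. The same shares apply to the marker counts that follow. Summed glandular markers were 51.8 to 210 FPKM against 1.04 to 6.54. Of the 7, 4 were tested, with 1 higher and 3 lower, and Ttr was listed at 0 throughout. Spink1 made up most of the Foxo1ff sum, at 44.2, 57.2 and 178 FPKM. Foxa2 lay below the minimum, averaging 0.943 and 0.644 FPKM with overlapping groups, and Lif was the marker called higher. Stroma markers summed to 35.6 to 40.4 against 40.8 to 55.6 FPKM (9 of 11 tested, 3 higher). Smooth muscle markers summed to 3.41 to 6.05 against 5.34 to 7.01 FPKM (3 of 7 tested, 1 higher). Endothelial markers summed to 1.84 to 1.89 against 2.06 to 3.90 FPKM (0 of 8 above the minimum). Leukocyte markers summed to 39.7 to 43.4 against 76.3 to 88.8 FPKM (9 of 14 tested, 7 lower and 2 higher). The sum in Foxo1dd was mostly Laptm5, while Ptprc was 0.252 to 0.372 FPKM there. Counts of higher markers turned on single samples. For stroma the count was 0 without Foxo1ff 1 or Foxo1dd 1, 1 without Foxo1ff 2, Foxo1ff 3 or Foxo1dd 3, and 5 without Foxo1dd 2. For leukocytes it was 1 on leaving out any sample other than Foxo1dd 1, for glands 0 without Foxo1ff 1, Foxo1dd 1 or Foxo1dd 3, and for smooth muscle 0 without Foxo1dd 2. The 4 globin genes of the erythroid list were at 0 in every sample. The ribosomal RNA precursor Rn45s ran from 23715 to 31304 FPKM in the Foxo1ff group and from 30479 to 40296 in Foxo1dd, and was not called. The nuclear RNAs Malat1 and Neat1, listed with it as signs of RNA quality, were higher in Foxo1dd (log2 change 0.68 and 0.55, limma adjusted p = 0.0128 and 0.0343). What part, if any, these differences had in the synthetase values was not tested, and in bulk RNA fewer cells of a type and less RNA per cell cannot be told apart.

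All 36 synthetase genes were expressed above the minimum for testing, a mean of 1 FPKM over the 6 samples. The lowest single value was 1.39 FPKM. Read back from the values of very short genes, the thinnest measurement, Ears2 in Foxo1dd 2, rested on an estimated 639 reads. This estimate takes GENCODE exon lengths, while the annotation behind the FPKM is not given, and the depth of Foxo1dd 2, the least certain. For a gene of 2 kb, the lowest value would stand for 204 to 272 reads. A gene was called higher or lower in Foxo1dd when limma's adjusted p, over all 11427 tested genes, was under 0.05. By this rule 3 synthetase genes were higher and 14 lower, and 19 were not called. Called genes made up 47.2% of the synthetases against 56.4% of all tested genes, of which 22.2% were higher and 34.2% lower. Calls among the synthetases were thus no more frequent than among genes in general. A log2 change is the Foxo1dd mean less the Foxo1ff mean of log2(FPKM + 1), with n = 3 samples per group throughout. The median log2 change was -0.29 over the 36 genes and -0.15 over all tested genes. Median-of-ratios scaling moved the latter to -0.03 and the former to -0.18, with 4 synthetase genes higher and 14 lower.

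**Figure D1:**
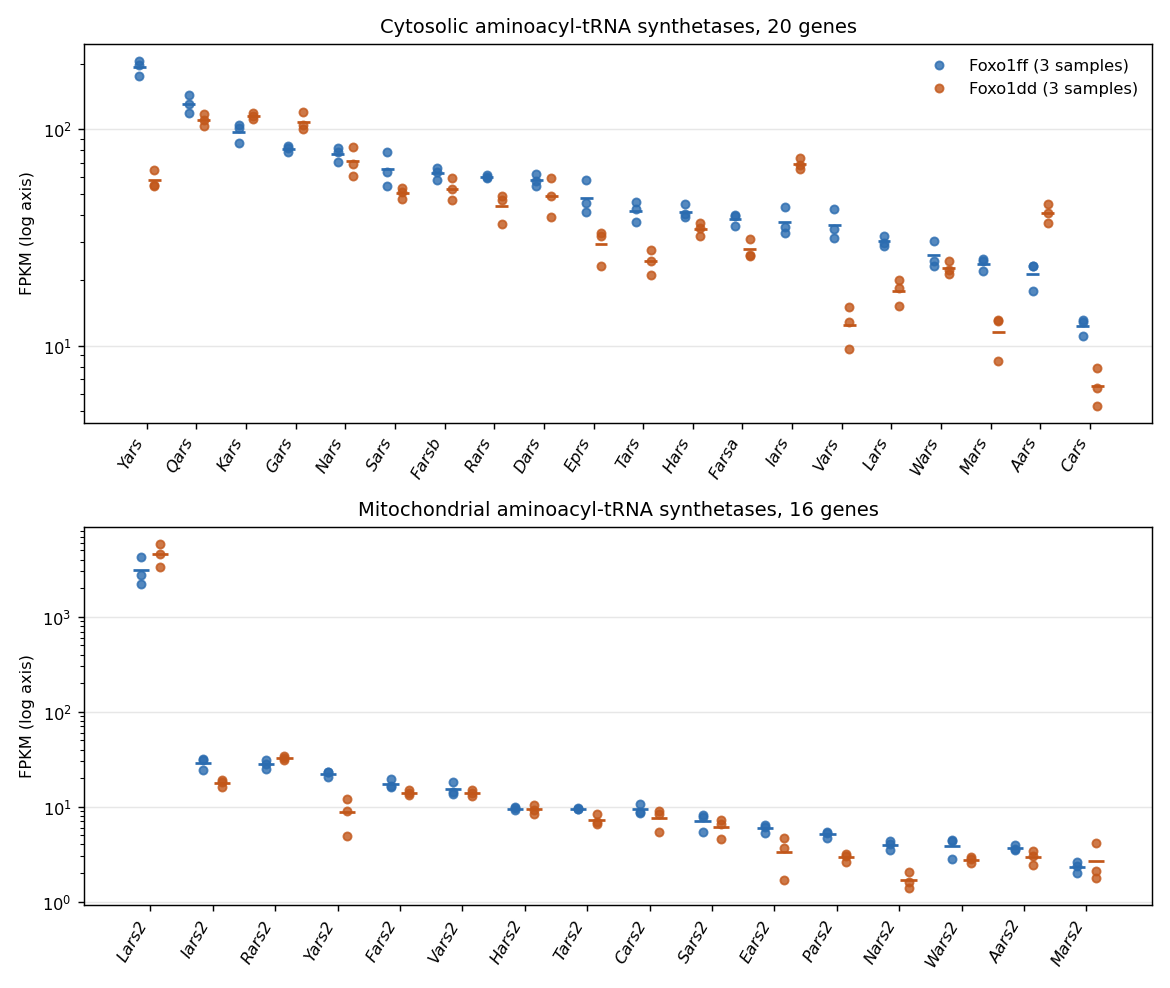
FPKM (log axis) of each cytosolic (upper panel, 20 genes) and mitochondrial (lower panel, 16 genes) synthetase gene, 1 point per sample, by genotype. Yars stands at the top of the cytosolic genes in Foxo1ff, at 176 to 206 FPKM, and Lars2 lies far above every other mitochondrial gene in both groups.

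Among the cytosolic genes, mean FPKM in Foxo1ff ran from 12.4 for Cars, the cysteine enzyme, to 193 for Yars, the tyrosine enzyme, with a median of 45.2 FPKM. In Foxo1dd the median was 42.6 FPKM. Qars (glutamine), Kars (lysine), Gars (glycine) and Nars (asparagine) followed Yars in Foxo1ff, at 131 ± 12.7, 97.5 ± 9.52, 81.4 ± 2.65 and 76.8 ± 5.87 FPKM (SD). In Foxo1dd, Kars (115 ± 3.61), Qars (111 ± 6.82) and Gars (108 ± 10.3) stood highest and did not differ beyond their spread, while Yars had dropped below Nars and Iars. Summed over the 20 genes, FPKM was 1084 to 1246 in the Foxo1ff group and 893 to 992 in Foxo1dd, without overlap. The totals over all genes were likewise lower in Foxo1dd without overlap. Without Yars the sums were 908 to 1040 and 839 to 935 FPKM, and the groups overlapped.

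Of the 20 cytosolic genes, 3 were higher (Aars, Gars and Iars), 9 were lower (Cars, Eprs, Farsa, Lars, Mars, Rars, Tars, Vars and Yars) and 8 were not called. The called share was 60% against the 56.4% of all tested genes. The median log2 change was -0.30. For 16 of the 20 the groups did not overlap, 4 higher and 12 lower, beside 64.2% of all tested genes (25.3% higher, 39.0% lower). Calls with a log2 change of at least 1 either way numbered 3, those of Yars, Vars and Mars, all lower, while 27.0% of tested genes passed that limit.

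Yars, whose product charges tyrosine tRNA (chromosome 4, 129189760 to 129219607, plus strand), had the largest change of the 36. Its FPKM was 206, 198 and 176 in the Foxo1ff group and 55.5, 54.7 and 64.8 in Foxo1dd. Every Foxo1dd sample lay below every Foxo1ff sample by a wide margin, and the spread within each group was small. The mean was 3.31-fold lower, a log2 change of -1.71 ± 0.12 (SE), limma adjusted p = 5.63e-06. Its exons overlap those of C77080 on the opposite strand.

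Vars, the valine enzyme, which is known to associate with elongation factor 1, lies on chromosome 17 (35000987 to 35016322, plus strand). It had 42.561, 34.698 and 31.338 FPKM in the Foxo1ff group and 14.998, 9.672 and 12.789 FPKM in Foxo1dd. The lowest Foxo1ff sample was above the highest Foxo1dd sample, and the drop was 2.90-fold (log2 change -1.47 ± 0.18, limma adjusted p = 1.32e-04). Mars, the methionine enzyme (chromosome 10, 127296221 to 127311786, minus strand), charges both initiator and elongator tRNA. Its values were 24.51, 25.08 and 22.16 FPKM against 13.17, 8.514 and 13.04 FPKM. Again the groups did not overlap, with Foxo1dd 2 the lowest sample, and the mean was 2.07-fold lower (log2 change -1.01 ± 0.18, limma adjusted p = 0.00108). Exons of Mars overlap those of Ddit3 on the opposite strand. Ddit3, which encodes CHOP, averaged 5.68 FPKM in the Foxo1ff group and 6.70 in Foxo1dd and was not called.

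Cars (cysteine) and Tars (threonine) fell by less. Cars (chromosome 7, 143557230 to 143600090, minus strand) had 12.9, 13.1 and 11.1 FPKM in the Foxo1ff group and 6.34, 5.28 and 7.84 in Foxo1dd. Tars (chromosome 15, 11382301 to 11399665, minus strand) had 46.3, 42.7 and 37.2 FPKM against 27.6, 21.3 and 24.5 FPKM. Neither gene's groups overlapped. The log2 changes were -0.85 ± 0.17 for Cars and -0.76 ± 0.14 for Tars (SE, limma adjusted p = 0.00225 and 0.00159). Lars (leucine) and Eprs (glutamate and proline) had log2 changes of -0.73 and -0.70, at means of 30.3 against 17.9 FPKM and 48.3 against 29.5 FPKM.

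The remaining cytosolic falls were small. Farsa, the alpha subunit of the phenylalanine enzyme, averaged 38.5 FPKM in the Foxo1ff group and 27.8 FPKM in Foxo1dd, a log2 change of -0.46 (limma adjusted p = 0.0118). Rars, the arginine enzyme, averaged 60.4 and 44.3 FPKM, a change of -0.45 (limma adjusted p = 0.0187). Without Foxo1ff replicate 2 both calls were lost, at adjusted p = 0.0547 for Farsa and 0.0572 for Rars. Farsb, which encodes the beta subunit of the same phenylalanine enzyme, averaged 62.7 and 53.2 FPKM and was not called (log2 change -0.24, 95% interval -0.52 to 0.05).

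Aars, the alanine enzyme (chromosome 8, 111033144 to 111057664, plus strand), was the synthetase gene with the largest rise. Its FPKM was 23.3, 23.3 and 17.9 in the Foxo1ff group and 36.9, 40.9 and 45.1 in Foxo1dd. All 3 Foxo1dd samples stood well above the control range, and the mean was 1.91-fold higher (log2 change 0.91 ± 0.15, limma adjusted p = 6.57e-04). Exons of Aars overlap those of Exosc6 on the same strand and Gm24103 on the other, so its value is uncertain to that extent.

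Iars, the isoleucine enzyme (chromosome 13, 49682100 to 49734267, plus strand), had 43.9, 35.2 and 33.2 FPKM in the Foxo1ff group and 73.9, 68.3 and 65.2 in Foxo1dd. The groups were far apart, with a 1.85-fold higher mean in Foxo1dd (log2 change 0.88 ± 0.13, limma adjusted p = 5.12e-04). Of the enzymes of the multisynthetase complex, Iars alone was called higher on the deposited scale. Gars, the glycine enzyme (chromosome 6, 55038007 to 55079500, plus strand), had 83.9, 81.6 and 78.6 FPKM against 105, 100.4 and 120.0 FPKM. Its groups did not overlap, and the mean was 1.33-fold higher (log2 change 0.40 ± 0.11, limma adjusted p = 0.0139). The call of Gars was lost without Foxo1ff replicate 2 (adjusted p = 0.0524) and without Foxo1dd replicate 3 (0.0545).

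The 8 cytosolic genes that were not called had log2 changes from -0.35 for Sars (serine) to 0.24 for Kars (lysine). Kars, at 104, 102 and 86.6 FPKM in the Foxo1ff group and 115, 119 and 112 in Foxo1dd, had groups that did not overlap (limma adjusted p = 0.104). It passed the threshold under median-of-ratios scaling (log2 change 0.37, adjusted p = 0.0244) and quantile normalization (0.38, adjusted p = 0.0134). Sars averaged 65.5 and 50.8 FPKM and was called without Foxo1ff replicate 3 (log2 change -0.47, adjusted p = 0.0294). Wars, the tryptophan enzyme, averaged 26.1 and 22.8 FPKM with a 95% interval of -0.50 to 0.13 for its log2 change. Dars (aspartate), Hars (histidine) and Qars (glutamine) had log2 changes of -0.25, -0.25 and -0.24. Nars (asparagine) had -0.12, a sign that turned under median-of-ratios scaling (0.0050).

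**Figure D2:**
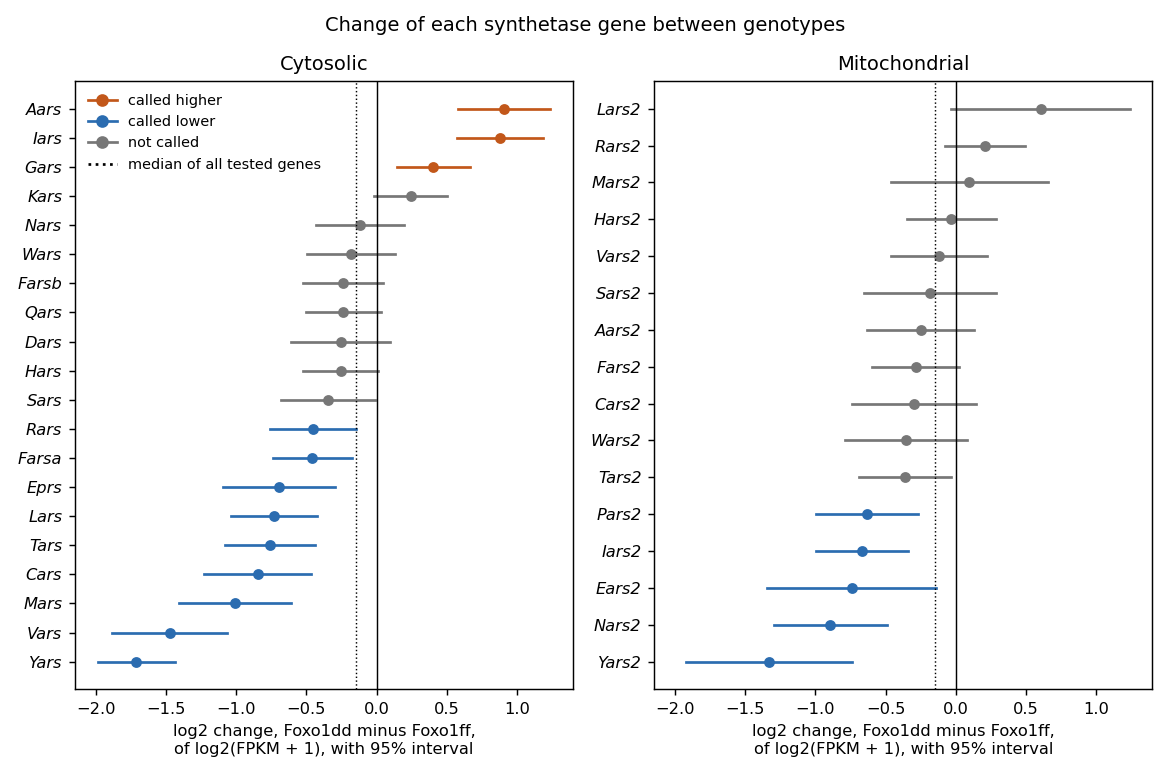
Log2 change (Foxo1dd minus Foxo1ff, of log2(FPKM + 1)) of every synthetase gene with its 95% interval, cytosolic enzymes in the left panel and mitochondrial enzymes in the right, coloured by call. The cytosolic genes run from -1.71 (Yars) to 0.91 (Aars), and of the mitochondrial genes none is called higher and Yars2 is lowest at -1.33.

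The cytosolic falls lay mostly among class I enzymes. Of the 9 class I genes (Cars, Iars, Lars, Mars, Qars, Rars, Vars, Wars and Yars), 1 was higher and 6 lower, with a median log2 change of -0.73. Of the 10 class II genes (Aars, Dars, Farsa, Farsb, Gars, Hars, Kars, Nars, Sars and Tars), 2 were higher and 2 lower, with a median of -0.25. Eprs, which has a domain of each class, was in neither. Called shares were 77.8% for class I and 40% for class II, beside 56.4% of all tested genes (22.2% higher, 34.2% lower). Summed FPKM of the class I genes was 505 to 584 in the Foxo1ff group and 331 to 371 in Foxo1dd, while the class II sums, 537 to 616 and 539 to 599 FPKM, overlapped. Yars weighed heavily in the class I sums. Its means were 193 and 58.3 FPKM, within mean sums of 551 and 354 FPKM. Under median-of-ratios scaling the counts were 1 higher and 6 lower for class I and 3 higher and 2 lower for class II. The difference between the classes was not tested.

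Calls occurred both inside and outside the multisynthetase complex. Of its 8 enzymes (Dars, Eprs, Iars, Kars, Lars, Mars, Qars and Rars), 1 was higher and 4 lower, and of the 12 other cytosolic genes 2 were higher and 5 lower. The called shares, 62.5% and 58.3%, were close to the 56.4% of all tested genes (22.2% higher, 34.2% lower). The median log2 changes were -0.35 and -0.30. Of the 3 scaffold genes, 2 were lower. Aimp2 averaged 55.5 FPKM in the Foxo1ff group and 28.6 in Foxo1dd (log2 change -0.95 ± 0.14, limma adjusted p = 4.76e-04), and Eef1e1, which encodes AIMP3, 84.9 and 36.4 FPKM (log2 change -1.22 ± 0.20, limma adjusted p = 7.92e-04). Aimp1 averaged 93.2 and 88.1 FPKM and was not called (log2 change -0.08, 95% interval -0.35 to 0.20, and 0.05 under median-of-ratios scaling).

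Mitochondrial synthetase genes were mostly expressed at lower levels than the cytosolic ones. Leaving Lars2 aside, their mean FPKM in Foxo1ff ran from 2.33 for Mars2 (methionine) to 29.1 for Iars2 (isoleucine), with a median of 9.35 FPKM over the 15 genes. Rars2 (arginine) followed Iars2 at 28.0 ± 3.15 FPKM (SD), a gap within the spread of samples. Of the 16 genes, 0 were higher, 5 were lower (Ears2, Iars2, Nars2, Pars2 and Yars2) and 11 were not called. The called share was 31.2%, against 56.4% of all tested genes. The groups did not overlap for 9 of the 16, 8 lower and 1 higher, beside 64.2% of all tested genes (39.0% lower, 25.3% higher). Their median log2 change was -0.29. Summed FPKM without Lars2 was 162 to 179 in the Foxo1ff group and 120.0 to 147 in Foxo1dd, 22.5% lower on average. This percentage includes the lower total FPKM of the Foxo1dd samples. With a minimum mean of 5 FPKM in place of 1, 10 mitochondrial genes were tested and 2 were lower, since Ears2, Nars2 and Pars2 left the test.

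Yars2, the mitochondrial tyrosine enzyme (chromosome 16, 16302965 to 16309640, plus strand), had the largest change of this set in log2(FPKM + 1). It was the only call of at least 1 log2 there, while 27.0% of all tested genes passed that limit. It had 20.3, 23.0 and 23.3 FPKM in the Foxo1ff group and 12.2, 4.88 and 9.08 in Foxo1dd. All Foxo1dd samples were lower, and Foxo1dd 2 was lowest. The mean was 2.55-fold lower (log2 change -1.33 ± 0.26, limma adjusted p = 0.00217).

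Nars2, the asparagine enzyme (chromosome 7, 96951505 to 97064758, plus strand), had 3.52, 4.00 and 4.33 FPKM in the Foxo1ff group and 2.04, 1.60 and 1.39 in Foxo1dd. The groups were apart and the mean was 2.36-fold lower (log2 change -0.89 ± 0.18, limma adjusted p = 0.00226). At such low FPKM the 1 added before the logarithm shrinks the log2 change relative to the fold. Over the alternative settings the log2 change of Nars2 ran from -1.20 to -0.75. Ears2, the glutamate enzyme (chromosome 7, 122037213 to 122067263, minus strand), had 6.43, 6.11 and 5.27 FPKM against 4.71, 1.69 and 3.64 FPKM. Its groups did not overlap, but Foxo1dd 2 was far below the other samples of its group (log2 change -0.74 ± 0.27, limma adjusted p = 0.0390). That call was lost without Foxo1dd replicate 2, where the log2 change was -0.43 (adjusted p = 0.0605). It was also lost without Foxo1ff replicate 1, 2 or 3 (0.101, 0.0992 and 0.0629) and without a filter on low values (0.103).

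Iars2 (chromosome 1, 185284726 to 185329396, minus strand), with the forkhead element shown above, had 31.9, 31.1 and 24.4 FPKM in the Foxo1ff group and 19.0, 16.3 and 18.4 in Foxo1dd. Its groups did not overlap, and the log2 change was -0.67 ± 0.14 (limma adjusted p = 0.00361). Pars2, the proline enzyme, averaged 5.12 and 2.95 FPKM (log2 change -0.63 ± 0.16, limma adjusted p = 0.00809). Vars2, the valine enzyme and the other gene with the forkhead element, had 18.3, 14.3 and 13.5 FPKM against 14.1, 12.9 and 14.8 FPKM. These groups overlapped, and Vars2 was not called (log2 change -0.12, 95% interval -0.46 to 0.22).

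The other mitochondrial genes that were not called had log2 changes between -0.36 for Tars2 (threonine) and 0.60 for Lars2 (leucine). Tars2, at 9.57 and 7.25 FPKM, had groups that did not overlap (limma adjusted p = 0.0569) and was called by eBayes without a trend (adjusted p = 0.0461) and without Foxo1dd replicate 1 (0.0354). Wars2, Cars2, Fars2 and Aars2, for tryptophan, cysteine, phenylalanine and alanine, had log2 changes from -0.35 to -0.25. Sars2 (serine) had -0.18 and Hars2 (histidine) -0.03, the latter 0.08 under median-of-ratios scaling. Rars2 averaged 28.0 and 32.4 FPKM, with a log2 change of 0.21, and was called under quantile normalization (0.36, adjusted p = 0.0370). Mars2 had 2.01, 2.35 and 2.63 FPKM in the Foxo1ff group and 4.14, 1.78 and 2.11 in Foxo1dd. Its Foxo1dd samples lay on both sides of the controls, and its log2 change of 0.09 became -0.17 without Foxo1dd replicate 1.

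Enzymes for the same amino acid in the 2 compartments were set side by side. Tyrosine stood out for size, with Yars and Yars2 both lower by more than 1 log2. Both were also lower for glutamate and proline, where Eprs (-0.70) fell with Ears2 (-0.74) and Pars2 (-0.63). The call of Ears2 was lost in several alternatives, as given above. Isoleucine went in opposite directions: Iars rose, with a 95% interval of 0.57 to 1.18 for its log2 change, and Iars2 fell, with an interval of -0.99 to -0.34. Valine and methionine fell in the cytosolic enzyme, while Vars2 (-0.12) and Mars2 (0.09) were not called. The same calls were found for cysteine, leucine, arginine and threonine, and for Farsa beside Fars2. For asparagine it was Nars2 that fell, and Nars was not called. Alanine had a rise of Aars beside -0.25 for Aars2, not called. The differences between paired enzymes were not tested.

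**Figure D3:**
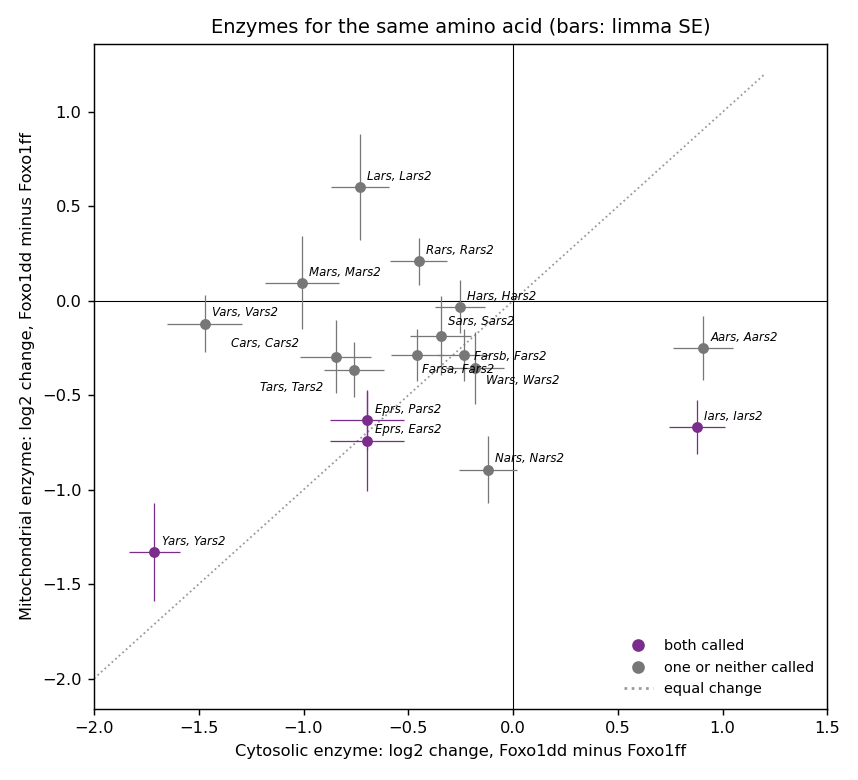
Log2 change of the cytosolic enzyme (horizontal axis) against that of the mitochondrial enzyme for the same amino acid (vertical axis), with limma standard errors as bars. Tyrosine lies at the lower left (-1.71 and -1.33), and isoleucine lies at the lower right (0.88 and -0.67).

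Lars2, the mitochondrial leucine enzyme (chromosome 9, 123366927 to 123462666, plus strand), had 2194, 2760 and 4270 FPKM in the Foxo1ff group and 4579, 5867 and 3379 in Foxo1dd. The groups overlapped, and the samples of each differed widely (SD 1073 and 1244 FPKM). The mean in Foxo1ff was 105.5-fold above that of Iars2, the next mitochondrial gene. Its log2 change was 0.60 ± 0.28, 95% interval -0.03 to 1.24 (limma adjusted p = 0.0955), and it was called higher under quantile normalization (0.89, adjusted p = 0.0133), without Foxo1ff replicate 3 (0.87, adjusted p = 0.0268) and without Foxo1dd replicate 3 (0.81, adjusted p = 0.0454).

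The annotated microRNA gene Mir6236, picked out after its values were seen, ran close to Lars2 sample by sample. It had 1829, 2924 and 4305 FPKM in the Foxo1ff group and 4359, 5900 and 2899 in Foxo1dd. Foxo1dd 2 was highest and Foxo1ff 1 lowest for both genes, and also for Rn45s. A transcript of Lars2 shares bases 3278 to 3349, near its 3' end, with a transcript of Gm15564 at 98.6% identity over 72 bases, and bases 3163 to 3349 with AA474408 at 80.1%. How reads that match several genes were counted is not given in the sources used here. Whether the Lars2 values come from Lars2 messenger RNA was not tested, so they are not read as a level of the enzyme's transcript.

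**Figure D4:**
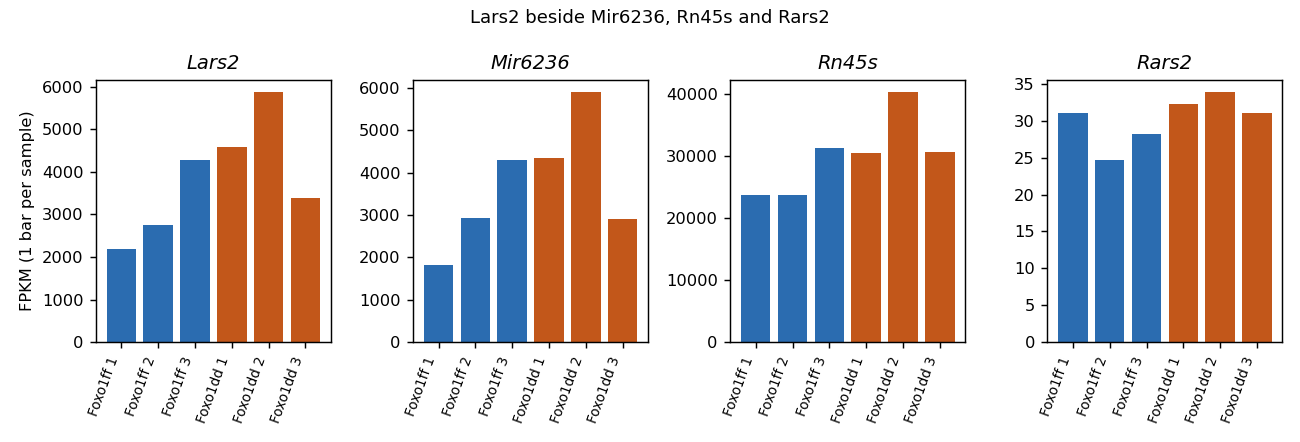
FPKM of Lars2, Mir6236, Rn45s and Rars2 in each sample, 1 bar per sample, each panel with its own axis from 0. Lars2, Mir6236 and Rn45s rank Foxo1dd 2 highest and Foxo1ff 1 lowest, while Rars2, the mitochondrial arginine enzyme, stays between 24.7 and 33.9 FPKM.

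Tarsl2 lies outside the naming rule. This gene, for a threonine enzyme related to Tars, rose from 7.06, 6.85 and 7.17 FPKM to 12.9, 16.4 and 14.0 FPKM, with no overlap (log2 change 0.94 ± 0.14, limma adjusted p = 4.65e-04), while Tars fell. Exons of Tarsl2 overlap those of Tm2d3 on the same strand.

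Genes acting just before and after charging were counted in the same fit. The counts of this and the following lists stand beside 22.2% higher and 34.2% lower of all tested genes. Of 11 genes for tRNA end processing, amidation, formylation and editing, 1 was higher and 2 lower. Trnt1, which adds the CCA end that every tRNA needs for charging, fell from 19.2 to 5.93 FPKM (log2 change -1.55 ± 0.16, limma adjusted p = 4.22e-05). The editing genes Aarsd1 (-0.44) and Prorsd1 (0.40) passed narrowly, at limma adjusted p = 0.0445 and 0.0478. Under median-of-ratios scaling 2 were higher and 1 lower. The higher count went to 0 on leaving out any sample other than Foxo1dd replicate 2, where it was 3, and the lower count to 1 on leaving out Foxo1ff 2, Foxo1ff 3, Foxo1dd 2 or Foxo1dd 3.

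Of 9 cytosolic elongation and termination factors, which receive charged tRNA or end translation, 0 were higher and 7 lower, with a median log2 change of -0.41. Eef1g, a subunit of the exchange factor for elongation factor 1, went from 887 to 350.0 FPKM (log2 change -1.33), Abce1, a ribosome recycling factor, from 81.1 to 34.8 (-1.21), and Eif5a from 554 to 289 (-0.94). Eef1d had a log2 change of -0.41. The lower count was 3 under median-of-ratios scaling and 3 without Foxo1ff replicate 2.

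Of 10 mitochondrial translation factors, 2 were higher and 5 lower, with a median log2 change of -0.28. Tufm and Tsfm, the mitochondrial elongation factors Tu and Ts, fell from 75.7 to 35.2 FPKM (-1.09) and from 36.8 to 17.5 FPKM (-1.03). Gfm1 and Guf1 had log2 changes of -0.69 and -0.62. Without Foxo1ff replicate 2, 0 were higher and 3 lower, and the higher count was also 0 on leaving out Foxo1ff 1, Foxo1ff 3 or Foxo1dd 1, and 1 on leaving out Foxo1dd 2 or Foxo1dd 3. Of 8 genes of initiation factor eIF2, which brings initiator tRNA to the ribosome, and its exchange factor eIF2B, 0 were higher and 5 lower, and 3 lower without Foxo1ff replicate 2. Eif2s2, Eif2s1, Eif2b2 and Eif2s3x had log2 changes of -0.87, -0.60, -0.61 and -0.50.

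Transporter genes were called in both directions. Of 17 amino acid transporter genes, 6 lay below the minimum, and of the 11 tested 5 were higher and 6 lower. Slc43a2, a transporter of large neutral amino acids, fell from 39.2 to 1.19 FPKM (log2 change -4.19), Slc6a14 from 59.2 to 6.42 (-3.04) and Slc7a6 from 11.6 to 1.42 (-2.39), while the taurine transporter Slc6a6 rose from 71.7 to 248 FPKM (1.77). Slc7a5 and Slc3a2, the subunits of a leucine and tyrosine carrier, were both higher, with log2 changes of 0.65 and 0.75 (limma adjusted p = 0.00324 and 0.00332).

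A list of 23 genes held Atf4, known ATF4 targets outside the synthetases and the eIF2 kinase genes Eif2ak3 and Eif2ak4, which act upstream of ATF4. Of these, 22 were tested, of which 3 were higher and 13 lower, beside 22.2% and 34.2% of all tested genes, with a median log2 change of -0.74. Under median-of-ratios scaling 4 were higher and 10 lower. Vldlr (-3.26), Trib3 (-2.95), Chac1 (-1.87) and Eif2ak3 (-1.76), the last encoding PERK, were those with the smallest p. The 3 higher genes were Cth (1.53), Mthfd2 (1.10) and Aldh18a1 (0.49). Atf4 itself averaged 137 FPKM in the Foxo1ff group and 77.7 in Foxo1dd (log2 change -0.81 ± 0.13, limma adjusted p = 7.41e-04). Asns, the asparagine synthetase gene, averaged 22.5 and 21.1 FPKM and was not called (log2 change -0.17, limma adjusted p = 0.611). The higher count was 2 on leaving out Foxo1ff 2, Foxo1ff 3, Foxo1dd 1 or Foxo1dd 3. Among the 5 synthetase genes with the C/EBP-ATF element, Aars, Gars and Iars were higher and Tars and Yars lower. Of the synthetase genes with a promoter entry, the element was held by 3 of the 3 called higher, 2 of the 9 called lower and 0 of the 15 not called. Over all genes with an entry, 4.51% held the element. The counts by call moved with the settings. Kars, searched without a match, was called higher under median-of-ratios scaling, and Kars, Lars2 and Rars2 were under quantile normalization. Sars and Tars2, also without a match, were called lower in some alternatives. Gars lost its call without Foxo1ff 2 and without Foxo1dd 3. Cars, Lars, Rars, Vars and Pars2, all called lower, had no matched entry and were not searched. Whether the element goes with the calls was not tested.

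**Figure D5:**
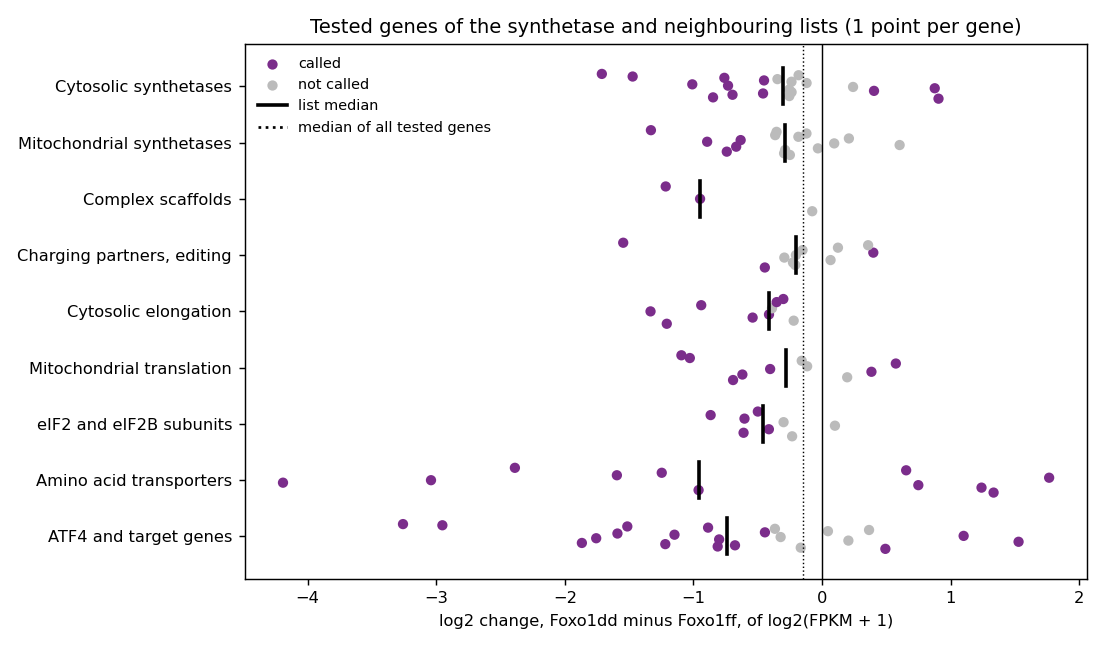
Log2 change of each tested gene, 1 point per gene, for the cytosolic and mitochondrial synthetases and the neighbouring gene lists named in the text. The amino acid transporters spread widest, from -4.19 to 1.77, and all 9 elongation and termination factors lie below 0.

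Positions come from GENCODE M21 (GRCm38, the assembly that mm10 names), in which all 36 symbols were found. Exons of 13 synthetase genes overlap exons on the opposite strand, those of Hars and Hars2 overlapping each other, and without a stated strand setting such reads cannot be assigned. The genes are Aars, Cars, Farsb, Hars, Mars, Yars, Cars2, Ears2, Fars2, Hars2, Iars2, Nars2 and Vars2, and their values are uncertain to that extent.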

How the data were processed

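RNA-seq of laser-captured luminal epithelium (3 Foxo1ff and 3 Foxo1dd samples) was taken as the gene-level FPKM values that the authors deposited. Per the submitters' processing notes, the build was mm10, and the tools, without their roles, were STAR 2.5.2b, featureCounts 1.5.0-p1 (Subread), DESeq2 1.12.4 and edgeR 3.28.0. The sources used here do not give the annotation, the strand setting or the handling of multiple matches. From these values log2(FPKM + 1) was fitted with limma 3.58.1 in R 4.3.3 (eBayes with trend), over 11427 genes averaging 1 FPKM or more (13537 left out), with Benjamini-Hochberg adjustment and a threshold of 0.05. The limma fit, but no other step, was tested on simulated data in which a small share of genes changed. Here 56.4% of tested genes were called and total FPKM differed between groups, which that simulation does not cover. FPKM steps of short genes gave 0.0102 to 0.0136 FPKM per read for a 1 kb gene. Foxo1dd 2 rests on the fewest genes (26) and is the least certain. No count test was run.

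The members and lists were chosen with earlier results of these data known. Sample values were printed for called members with a log2 change of at least 1, their partner in the other compartment and the next largest changes, up to 12, and up to 4 genes of smallest p were named from each list. Values of Gars, Kars, Lars2, Iars2, Mir6236, Ddit3, Slc7a5, Slc3a2, Atf4, Asns, Cth, Mthfd2, Aldh18a1 and Tarsl2 were added after they were seen. Similarity to Lars2 was searched with blastn 2.17.0. The fit was repeated without a filter, with a minimum of 5 FPKM, with pseudocounts 0.1 and 0.5, after quantile normalization or median-of-ratios scaling, without the trend, with a replicate block and without each sample in turn.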

Additional observations from a re-analysis of the deposited data

How the results depend on the processing

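Of the 17 synthetase calls, 13 kept direction and threshold under each of the 14 alternatives that gave a value. The exceptions were Farsa, Gars, Rars and Ears2, given above. Directions turned only for genes that were not called. They were Nars (log2 change 0.0050 under median-of-ratios scaling, 0.0011 under quantile normalization), Hars2 (0.082 and 0.11, and -0.10 to 0.038 on leaving out a sample), Mars2 (-0.17 to 0.27 on leaving out a sample) and Vars2 (-0.20 to 0.0030 likewise). The count of mitochondrial genes called higher was 2 under quantile normalization and 0 to 1 on leaving out a sample, and the count called lower was 2 with a minimum of 5 FPKM, where 10 were tested. The cause of the other changes was not tested. With 3 samples a group, the smallest change called among the synthetases was 0.40 log2 (Gars).

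With the replicate number as a block, 6141 genes were called against 6445 without it, and none of the 36 synthetase genes changed its call. Deviations of same-numbered samples correlated at 0.12, 0.11 and -0.13, and only Foxo1ff 2 agreed best with its own number, so the numbers were not taken as pairs.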
